A study of Homo sapiens with 6 samples.

Results

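Integrin and laminin subunit genes were followed in A673, an established line from an Ewing sarcoma in which the fusion protein EWS-FLI1 is made. The genes were taken by symbol from a list of 35, of which 25 encode integrin subunits and 10 laminin chains, and all 35 were among the 25268 gene symbols of the deposited table. The cells had been transfected for 72 h with esiRNA, mixtures of short interfering RNAs cut by an enzyme from a long double strand, against FLI1 (esiFLI1, which the labels describe as EWS-FLI1 knockdown), against USP9X (esiUSP9X), a deubiquitinase, or against GFP (esiGFP, the non-targeting control). Each group had 2 libraries, numbered 1 and 2, made from rRNA-depleted total RNA of this single line, all grown in the same serum-containing medium. Values are FPKM (fragments per kilobase of transcript with the library's mapped fragments as the scale), which corrects levels for gene length but, as given later, not for the share of MIR6723 or for GC content. The labels do not say that the libraries of a group came from separate cultures, and p-values can therefore speak only of the spread among these libraries, which may be technical. In a bulk sample, fewer cells making an RNA and less of it per cell cannot be told apart.

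Integrins are cell surface receptors made of an alpha and a beta chain, and the pair decides which matrix protein or cell the receptor holds. ITGB1 pairs with most alpha chains, and ITGAV pairs with several beta chains. Laminins are trimers of an alpha, a beta and a gamma chain that form the sheet of basement membranes, and the alpha chain carries the main integrin binding site. In Ewing sarcoma, EWS-FLI1 acts as an aberrant ETS transcription factor, and lowering it is known to bring out mesenchymal features such as stronger adhesion.

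The summed FPKM of a library lay between 781732 and 907926, and MIR6723, a microRNA symbol, held 33.2% to 50.9% of it. The number of reads per library is unknown, and genes at or near 0 may still be expressed. FLI1 was 12.7 and 14.1 FPKM in esiFLI1, 25.0 and 31.9 in esiUSP9X, and 24.1 and 36.4 in esiGFP. USP9X was 5.31 and 7.10 FPKM in esiUSP9X, 26.2 and 37.7 in esiFLI1, and 20.6 and 26.5 in esiGFP, so each target was lowest in its own knockdown. FLI1 in esiFLI1 differed by -1.09 on the log2 scale (limma adjusted p = 0.13, and 0.00044 with a replicate block) and USP9X in esiUSP9X by -1.77 (adjusted p of 1, and 0.00045 with the block). In esiFLI1, USP9X differed from esiGFP by 0.41 (limma adjusted p = 0.60, and 0.013 with the block). Of 11 genes fixed as Ewing sarcoma markers, 10 reached the filter on low values, and in esiFLI1 3 of these fell and 0 rose (9 and 0 with the block). Of all 12169 genes that reached it, 0.23% fell and 2.58% rose without the block, and 21.6% fell and 20.6% rose with it. The surface marker CD99 was listed at 0 in all 6 libraries, which may be a failed FPKM estimate and was not tested. Of 8 markers each for endothelial, epithelial and blood cells, 2 of each list reached the filter. Their summed FPKM was 30.8 and 51.9 in esiFLI1, 16.8 and 24.7 in esiUSP9X and 19.6 and 22.8 in esiGFP for the endothelial list, of which EMCN held most. Against esiGFP, both kept endothelial genes were higher in esiFLI1: KDR had 1.30 and 1.33 FPKM in esiFLI1 and 0.106 and 0.0885 in esiGFP (limma adjusted p = 0.019), and passed the filter only through esiFLI1, and EMCN had 27.1 and 49.8 FPKM in esiFLI1 and 18.4 and 22.5 in esiGFP (0.0029 with the block, 0.38 without it). PECAM1 and CDH5, which define the type, stayed at or under 0.169 FPKM. The epithelial sum was 243 and 141 in esiFLI1, 230 and 162 in esiUSP9X and 199.5 and 148 in esiGFP, mostly KRT18, with KRT5 and KRT14 at 0. KRT18 was not called, whereas KRT8, with 21.3 and 12.03 FPKM in esiFLI1, 14.5 and 8.38 in esiUSP9X and 7.63 and 4.12 in esiGFP, was higher in esiFLI1 (limma adjusted p = 6e-05 with the block, 0.22 without it) and in esiUSP9X (0.021 with the block, 1 without it). The blood sum was 16.4 and 12.8 in esiFLI1, 18.0 and 18.1 in esiUSP9X and 11.45 and 9.30 in esiGFP, mostly LCP1 and CD68, with CD3E at 0 and PTPRC at or under 0.0201. CD68 had 7.59 and 4.49 FPKM in esiFLI1 and 3.77 and 2.73 in esiGFP (limma adjusted p = 0.0078 with the block, 0.32 without it), and LCP1 had 15.8 and 16.2 FPKM in esiUSP9X and 7.47 and 6.49 in esiGFP (0.012 with the block, 1 without it). The part of these markers in the results was not tested.

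A fold change was computed for genes of at least 1 FPKM in at least 2 libraries. Of the 35 members, 21 reached this, 14 integrin and 7 laminin genes. Of these 21, 6 (ITGA3, ITGA8, ITGA11, ITGB8, LAMA4 and LAMB3) did so only because of their esiFLI1 libraries, so they had to be higher there, and counts are therefore given over the other 15. Just inside the limit lay ITGA11, with 1.67 and 1.02 FPKM in esiFLI1, and ITGB8, with 1.02 and 1.73. Just outside it lay ITGB3, with 1.35 and 0.919, ITGA9, with 1.12 and 0.785, and ITGB4, with 1.05 and 0.394.

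The promoters of 3 members are shown because ITGA4 and LAMA4 had the largest differences of log2(FPKM + 1) in esiFLI1 and ITGA8 had no ETS core motif in its promoter. These 3 were chosen after their values were seen. The ETS core GGAA is the sequence read by FLI1 and by EWS-FLI1. RefSeq promoters (250 bases before to 50 after the annotated start, GRCh38.p14) were matched by symbol for 25 of the 35 genes, 32 promoters in all. ITGA3, whose level was also higher in esiFLI1, had no entry. The sequences read 5′ to 3′ on the gene's strand, with capitals for GGAA and for its reverse complement TTCC. They lie at chr2:181457136-181457435, plus strand, chr10:15719873-15720172, minus strand and chr6:112254518-112254817, minus strand.
ITGA4 promoter: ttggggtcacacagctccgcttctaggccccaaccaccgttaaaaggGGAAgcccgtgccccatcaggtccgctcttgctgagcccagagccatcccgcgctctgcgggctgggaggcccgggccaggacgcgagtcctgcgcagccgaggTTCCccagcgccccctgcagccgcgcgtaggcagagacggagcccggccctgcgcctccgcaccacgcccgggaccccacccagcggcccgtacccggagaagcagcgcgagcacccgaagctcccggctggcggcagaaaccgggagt
ITGA8 promoter: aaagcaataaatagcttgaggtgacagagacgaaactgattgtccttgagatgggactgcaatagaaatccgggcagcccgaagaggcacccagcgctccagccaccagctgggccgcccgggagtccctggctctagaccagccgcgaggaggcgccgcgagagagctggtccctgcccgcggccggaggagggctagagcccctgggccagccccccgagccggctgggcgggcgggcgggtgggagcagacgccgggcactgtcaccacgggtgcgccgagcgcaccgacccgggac
LAMA4 promoter: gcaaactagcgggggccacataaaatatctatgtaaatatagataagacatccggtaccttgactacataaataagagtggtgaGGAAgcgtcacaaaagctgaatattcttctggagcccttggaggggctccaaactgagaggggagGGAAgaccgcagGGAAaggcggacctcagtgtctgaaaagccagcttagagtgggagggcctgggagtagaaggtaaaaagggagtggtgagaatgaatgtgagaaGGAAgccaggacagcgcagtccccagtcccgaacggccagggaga
GGAA was found 2 times in the ITGA4 promoter, 0 times in that of ITGA8 and 4 times in that of LAMA4, counting both strands, and the promoters of ITGA1 and ITGA11 held 4 and 2. At least 1 GGAA stood in 30 of the 32 member promoters, the exceptions being that of ITGA8 and 1 of ITGA6, and in 95.5% of all 35116 RefSeq promoters of this length, with a median of 3 in both. The doubled core GGAAGGAA, which contains GGAA 2 times, stood in 2 member promoters, those of ITGA10 and LAMB2, and in 3.67% of all promoters. TGANTCA, the site of AP-1 factors, which overlaps neither, stood in 3 member promoters, those of ITGA5, LAMA3 and LAMB3, and in 7.71% of all. These matches are a description of the letters in this window.

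Most integrin and laminin genes kept in A673 cells were higher in esiFLI1 than in esiGFP, and the largest differences of log2(FPKM + 1) were those of ITGA4, LAMA4, ITGA3, ITGA8 and ITGA1. This order depends on the pseudocount: with 0.1 in place of 1 the values were 4.78 for LAMA4, 3.87 for ITGA8, 3.51 for ITGA11, 3.49 for ITGA3, 3.27 for ITGA4 and 2.39 for ITGA1. Of the genes named in it, LAMA4, ITGA3, ITGA8 and ITGA11 were kept only through esiFLI1 and had to be higher there. ITGA4 and ITGA1 were kept without it. The comparison asks which genes depend on the fusion. Of the 15 genes kept without the help of esiFLI1, 2 rose and 0 fell in limma's test without a replicate term (adjusted p under 0.05), where 1.37% of 11679 such genes rose and 0.24% fell. With the replicate number as a block, a term that removes what libraries of equal number share, 12 of the 15 rose and 0 fell, where 18.2% of the genes rose and 22.5% fell. Both esiFLI1 libraries lay above both esiGFP libraries for 9 of the 15, against 17.3% of those genes, and below them for 0, against 18.1%. The median log2 difference of the 15 was 0.76, against -0.05 for all 11679. Over all 21 kept members the counts were 6 rises without the block and 18 with it, beside 2.58% and 20.6% of 12169 genes, with 0 falls in either fit beside 0.23% and 21.6%, and 15 of the 21 lay above both controls beside 19.8%, and the median was 0.90 against -0.03. Fold changes are differences of log2(FPKM + 1), which understate the change of low genes.

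Among collagen-binding alpha chains, ITGA1 rose, and ITGA11 was higher in esiFLI1. ITGA11 was kept only through its esiFLI1 libraries, so that it is higher there is no finding of the test. ITGA1 was 12.02 and 17.7 FPKM in esiFLI1 and 2.29 and 3.17 FPKM in esiGFP. Both esiFLI1 libraries were well above both controls, by 5.26 and 5.57 times in the pairs of equal number, and the log2 difference was 2.07 (SE 0.26, limma adjusted p = 0.027). ITGA11, a collagen receptor of fibroblasts, was 1.67 and 1.02 FPKM in esiFLI1 and 0.0405 and 0.00869 FPKM in esiGFP. It was close to 0 in the controls, so its log2 difference of 1.18 (SE 0.17, limma adjusted p = 0.038) stands beside a ratio of group means of 54.7. That ratio is poorly set by controls so near 0, and was 41.2 and 118 in the pairs of equal number. The other collagen receptors, ITGA2 and ITGA10, reached at most 0.259 and 0.400 FPKM in any library and were below the filter.

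Among laminin-binding alpha chains, ITGA3 was the least expressed in the controls and was kept only through its esiFLI1 libraries, so that it is higher there is no finding of the test. ITGA3 was 8.16 and 4.27 FPKM in esiFLI1 and 0.682 and 0.267 FPKM in esiGFP (log2 difference 2.25, SE 0.32, limma adjusted p = 0.035), with both esiFLI1 libraries far above both controls. ITGA6 was 5.55 and 7.76 FPKM in esiFLI1 and 3.09 and 3.53 FPKM in esiGFP, a ratio of means of 2.01 with no overlap of the groups. Its log2 difference of 0.82 passed limma's test with the block (SE 0.12, adjusted p = 0.0014) but not without it (SE 0.22, adjusted p = 0.15). ITGA7, the muscle laminin receptor, was 14.8 and 6.77 FPKM in esiFLI1 and 8.33 and 5.16 FPKM in esiGFP. These groups overlapped, and the log2 difference of 0.55 was called only with the block (limma adjusted p = 0.012, against 0.68 without it). That call ended without esiFLI1 1 (0.085) or esiGFP 1 (0.057). In esiFLI1 the mean levels of the 3 chains were 10.8 ± 5.68 FPKM for ITGA7, 6.66 ± 1.56 for ITGA6 and 6.22 ± 2.75 for ITGA3 (SD, n = 2 each). There ITGA7 was above ITGA3 in both libraries, and the place of ITGA6 beside each of them changed between the libraries. In esiGFP ITGA3 was 0.475 ± 0.294 FPKM, below ITGA6 at 3.31 ± 0.312 and ITGA7 at 6.74 ± 2.24. The levels of the 3 chains were not tested against each other.

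Chains that bind the RGD motif of fibronectin, vitronectin and related proteins differed in how far they moved. ITGA5, the fibronectin receptor chain, was 100.2 and 60.5 FPKM in esiFLI1 and 74.4 and 48.3 FPKM in esiGFP. It was the highest alpha chain in every library, and its groups overlapped. Its log2 difference of 0.37 was called only with the block (limma adjusted p = 0.023, against 0.74 without it), and that call ended without esiFLI1 1 (0.12), esiGFP 1 (0.066) or esiGFP 2 (0.11). ITGAV was 34.1 and 58.6 FPKM in esiFLI1 and 13.7 and 20.5 FPKM in esiGFP. Both esiFLI1 libraries were above the controls, and the log2 difference of 1.37 was called with the block (SE 0.11, limma adjusted p = 0.00011) and not without it (SE 0.36, adjusted p = 0.15). ITGA8, which pairs with ITGB1 and binds nephronectin, was 3.69 and 4.34 FPKM in esiFLI1 and 0.178 and 0.185 FPKM in esiGFP. The libraries of each group lay close together, and the log2 difference of 2.08 (SE 0.14, limma adjusted p = 0.0077) corresponds to a ratio of means of 22.1. ITGA8 was kept only through its esiFLI1 libraries, so that it is higher there is no finding of the test. ITGA2B, the platelet chain, stayed at or under 0.185 FPKM.

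ITGA4, also a chain of white blood cells, had the largest difference of log2(FPKM + 1) among the kept members, and the fifth largest with a pseudocount of 0.1. This chain binds VCAM1 and fibronectin, mostly together with ITGB1. ITGA4 was 37.9 and 55.9 FPKM in esiFLI1 and 4.38 and 4.97 FPKM in esiGFP. The pairs of equal number differed 8.64-fold and 11.3-fold, and the log2 difference was 3.05 (SE 0.25, limma adjusted p = 0.010). Its close relative ITGA9 was 1.12 and 0.785 FPKM in esiFLI1 and 0.402 and 0.369 FPKM in esiGFP, below the filter.

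**Figure D1:**
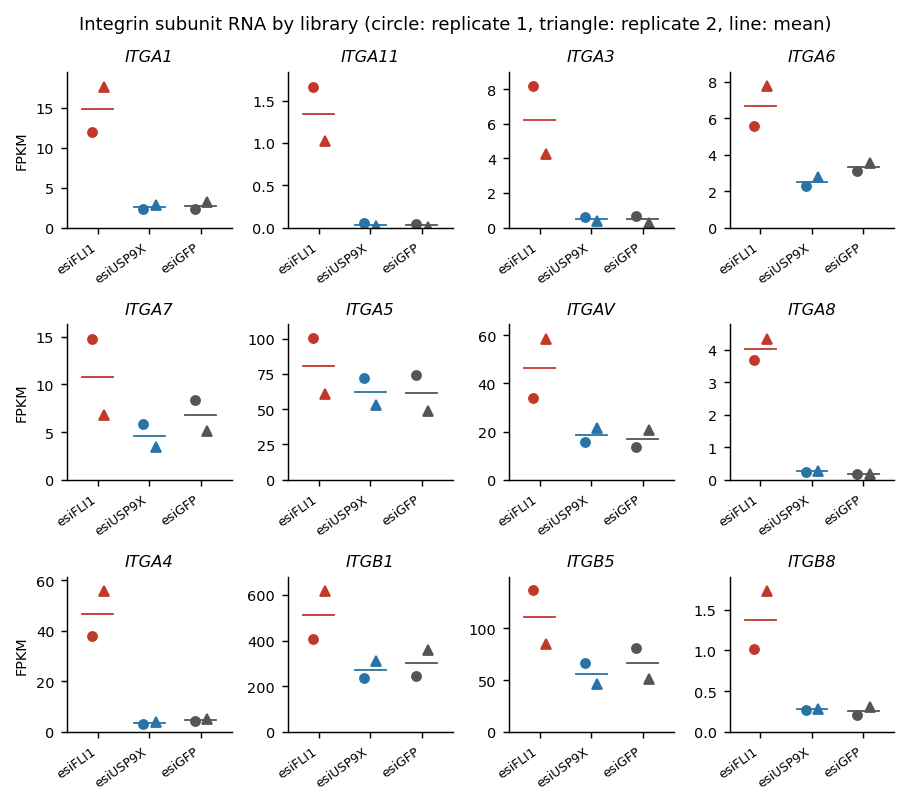
FPKM (vertical axes, each from 0) of 12 integrin genes in the 2 libraries of esiFLI1, esiUSP9X and esiGFP, with a circle for replicate 1, a triangle for replicate 2 and a line at the group mean. ITGA4 stood at 37.9 and 55.9 FPKM in esiFLI1, while every esiUSP9X and esiGFP library was under 5, and ITGA5 and ITGA7 overlapped between groups.

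Among beta chains, ITGB1, ITGB5 and ITGB8 had log2 differences of 0.76, 0.73 and 0.90. ITGB1, the common partner, was 409 and 618 FPKM in esiFLI1 and 244 and 361 FPKM in esiGFP, the highest level of any member in every library. Its log2 difference of 0.76 was nearly equal in the 2 pairs (0.74 and 0.78) and was called with the block (SE 0.10, limma adjusted p = 0.00098) but not without it (SE 0.32, adjusted p = 0.35). ITGB5, a partner of ITGAV in vitronectin binding, was 136 and 84.4 FPKM in esiFLI1 and 80.9 and 51.0 FPKM in esiGFP. Here too the pairs gave close values (0.75 and 0.72), and the log2 difference of 0.73 was called with the block (limma adjusted p = 0.00096) and not without it (0.45). ITGB8, which with ITGAV releases active TGF-beta, was 1.02 and 1.73 FPKM in esiFLI1 and 0.210 and 0.300 FPKM in esiGFP, with a log2 difference of 0.90 (SE 0.15, limma adjusted p = 0.0026 with the block, 0.084 without it). ITGB8 was kept only through its esiFLI1 libraries, so that it is higher there is no finding of the test.

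Below the filter, ITGB3, the other main partner of ITGAV, was 1.35 and 0.919 FPKM in esiFLI1 and 0.0773 and 0.0466 FPKM in esiGFP. ITGB4, which pairs with ITGA6 in hemidesmosomes, was 1.05 and 0.394 FPKM in esiFLI1 and 0.232 and 0.0685 FPKM in esiGFP. Both genes were higher in each esiFLI1 library than in either control, and neither was among the genes tested after the filter. ITGB6 was at or under 0.0169 FPKM and listed at 0 in 3 libraries.

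Among the other chains known mainly from white blood cells, ITGAE and ITGB2 could be tested. ITGAE, whose product binds E-cadherin, was 8.09 and 5.98 FPKM in esiFLI1 and 9.27 and 7.25 FPKM in esiGFP. The groups overlapped, with a log2 difference of -0.21 (limma adjusted p = 0.80, and 0.13 with the block). ITGB2 was 4.11 and 1.60 FPKM in esiFLI1 and 4.21 and 1.74 FPKM in esiGFP, a difference of -0.05 (limma adjusted p = 0.98, and 0.82 with the block). ITGAL, ITGAM, ITGAX and ITGB7 were each under 0.06 FPKM in every library, and ITGAL, ITGAM and ITGAX were listed at 0 in 3, 1 and 1 of them.

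Among laminin alpha chains, LAMA4 and LAMA5 were higher in esiFLI1 and LAMA3 overlapped between groups. LAMA4, a chain of vessel and muscle basement membranes, was 5.92 and 7.22 FPKM in esiFLI1 and 0.0643 and 0.257 FPKM in esiGFP. The log2 difference was 2.70 (SE 0.19, limma adjusted p = 0.0077), and 2.70 and 2.71 in the pairs of equal number. LAMA4 was kept only through its esiFLI1 libraries, so that it is higher there is no finding of the test. LAMA5, the most widespread alpha chain of adult tissues, was 18.2 and 7.72 FPKM in esiFLI1 and 7.07 and 1.52 FPKM in esiGFP. Library 1 was above library 2 in each group, and the log2 difference of 1.52 was called with the block (SE 0.22, limma adjusted p = 0.0016) but not without it (SE 0.67, adjusted p = 0.38). Without the block the difference was 0.68 when esiGFP 2 was left out and 2.36 when esiGFP 1 was, and with the block 1.11 and 1.93. LAMA3, a chain of epithelial laminin, was 2.24 and 2.16 FPKM in esiFLI1 and 2.77 and 1.74 FPKM in esiGFP, a log2 difference of -0.01 (SE 0.21, limma adjusted p = 0.99) that turned positive, to 0.10, when libraries were rescaled without MIR6723. LAMA1 was listed at 0 in 5 libraries, and LAMA2 stayed at or under 0.381 FPKM.

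The beta and gamma chains had log2 differences between 0.64 and 0.99. LAMB1 was 134 and 128 FPKM in esiFLI1 and 70.8 and 75.8 FPKM in esiGFP. LAMC1, the gamma chain of most laminins, was 72.5 and 66.0 FPKM in esiFLI1 and 37.0 and 34.1 FPKM in esiGFP. Replicates of these 2 genes lay close together and the groups did not overlap. Their log2 differences of 0.83 and 0.94 were called with the block (limma adjusted p = 0.00057 and 0.00025) and not without it (0.072 and 0.067). LAMB2 was 18.6 and 10.9 FPKM in esiFLI1 and 12.4 and 6.16 FPKM in esiGFP, which overlap, and its difference of 0.64 was called only with the block (limma adjusted p = 0.0038, against 0.60). LAMB3, which joins LAMA3 in epithelial laminin, was 3.09 and 1.76 FPKM in esiFLI1 and 0.804 and 0.582 FPKM in esiGFP, a difference of 0.99 (limma adjusted p = 0.0012 with the block, 0.14 without it). LAMB3 was kept only through its esiFLI1 libraries, so that it is higher there is no finding of the test. LAMC3 stayed at or under 0.409 FPKM.

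**Figure D2:**
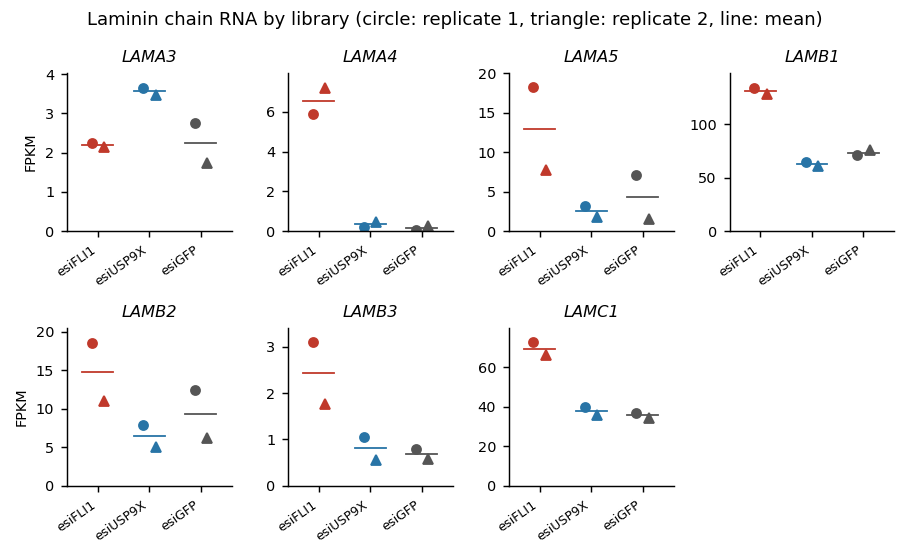
FPKM (vertical axes, each from 0) of the 7 laminin genes that passed the filter, in the 2 libraries of esiFLI1, esiUSP9X and esiGFP, with a circle for replicate 1, a triangle for replicate 2 and a line at the group mean. LAMB1 and LAMC1 separated cleanly in esiFLI1 (134 and 128, and 72.5 and 66.0 FPKM), and LAMA3 was highest in esiUSP9X.

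The 6 calls made without a block (ITGA1, ITGA3, ITGA4, ITGA8, ITGA11 and LAMA4) rest on few libraries, and ITGA3, ITGA8, ITGA11 and LAMA4 among them had to be higher in esiFLI1 to be kept. None of the 6 remained without esiGFP 1 (adjusted p = 0.096 to 0.20) or esiGFP 2 (0.097 to 0.24), where the remaining control is assumed to vary like the other groups. Without esiFLI1 1, esiUSP9X 1 or esiUSP9X 2 the calls for ITGA4, ITGA8 and LAMA4 remained, and without esiFLI1 2 all but that of ITGA1 did. Leaving out 1 library in the fit without the block also moved the log2 difference of ITGA5 between 0.01 (without esiFLI1 1) and 0.73 (without esiFLI1 2), and in the same way those of ITGA7 between 0.04 and 1.06 and of ITGB5 between 0.39 and 1.07. That of ITGB1 lay between 0.46 (without esiFLI1 2) and 1.06 (without esiFLI1 1), and that of LAMB2 between 0.19 (without esiGFP 2) and 1.09 (without esiGFP 1). With the block ITGA7 moved to 0.35 without esiFLI1 1 and 0.75 without esiFLI1 2.

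Knockdown of USP9X, tested against esiGFP, gave no call for any integrin or laminin gene. In limma's fit without the block 0 of 21 genes were called and 0 had an unadjusted p under 0.05, where 0.0247% of 12169 genes were called higher, 0 lower, and 0.937% had such an unadjusted p. With the block 0 were called and 5 had an unadjusted p under 0.05, where 0.074% of genes were called higher, 0.164% lower, and 10.9% had such an unadjusted p. The median log2 difference of the 21 was -0.01, equal to that of all genes. Over the 15 genes kept without the help of esiFLI1 it was -0.13, against -0.01 for all such genes. Of these 15, 4 had a difference above 0, and 5 had an unadjusted p under 0.05 in limma's fit with the block. The shift of the 15 as a set was not tested. ITGB1 was 236 and 310 FPKM in esiUSP9X and 244 and 361 FPKM in esiGFP, and its log2 difference of -0.13 had a 95% interval of -0.37 to 0.10 with the block. The interval was -0.21 to 0.27 for ITGA5, -0.12 to 0.39 for ITGAV and -0.13 to 0.30 for LAMC1. Without the block the intervals were wider: -0.94 to 0.67 for ITGB1, -0.87 to 0.94 for ITGA5, -0.78 to 1.04 for ITGAV and -0.36 to 0.52 for LAMC1. In that fit USP9X itself, with a log2 difference of -1.77, was not called, so the absence of calls there says little.

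The 5 genes with an unadjusted p under 0.05 in the blocked fit were ITGA4, ITGA6, ITGA7, LAMB2 and LAMA3. ITGA4 was 3.15 and 3.83 FPKM in esiUSP9X and 4.38 and 4.97 FPKM in esiGFP, a difference of -0.34 (limma adjusted p = 0.39 with the block). ITGA6 was 2.27 and 2.79 FPKM in esiUSP9X and 3.09 and 3.53 FPKM in esiGFP, a difference of -0.29 (adjusted p = 0.43 with limma's block). Both esiUSP9X libraries were below both controls for these 2 genes and for LAMB1, with 64.6 and 60.9 FPKM in esiUSP9X and 70.8 and 75.8 in esiGFP. Such a separation downward was seen in 3 of the 21 members and in 7.82% of all genes, and a separation upward in 2, ITGA8 and LAMA3, and in 8.75% of all genes. ITGA7 was 5.88 and 3.38 FPKM in esiUSP9X and 8.33 and 5.16 FPKM in esiGFP (difference -0.46, limma adjusted p = 0.28 with the block), and LAMB2 was 7.84 and 5.01 FPKM in esiUSP9X and 12.4 and 6.16 FPKM in esiGFP (difference -0.43, adjusted p = 0.27 with limma's block).

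LAMA3 had a difference of the other sign. It was 3.66 and 3.48 FPKM in esiUSP9X and 2.77 and 1.74 FPKM in esiGFP, with both knockdown libraries above both controls. The log2 difference was 0.51 (SE 0.14, limma adjusted p = 0.27 with the block), and this became a call only when esiGFP 1 was left out of the blocked fit (0.71, adjusted p = 0.019). LAMA5, with 3.24 and 1.84 FPKM in esiUSP9X and 7.07 and 1.52 in esiGFP, differed by -0.38 (limma adjusted p = 0.61 with the block). Without esiGFP 2 that became -0.79 (adjusted p = 0.0020), without esiGFP 1 it was 0.03, and without esiUSP9X 1 it was 0.04, so its direction depends on single libraries. In the blocked fits without esiGFP 1 or esiGFP 2, with 1 residual degree of freedom, limma's estimated prior degrees of freedom were infinite, so that the adjusted p-values of these fits treat the spread as known and are too small to be relied on.

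**Figure D3:**
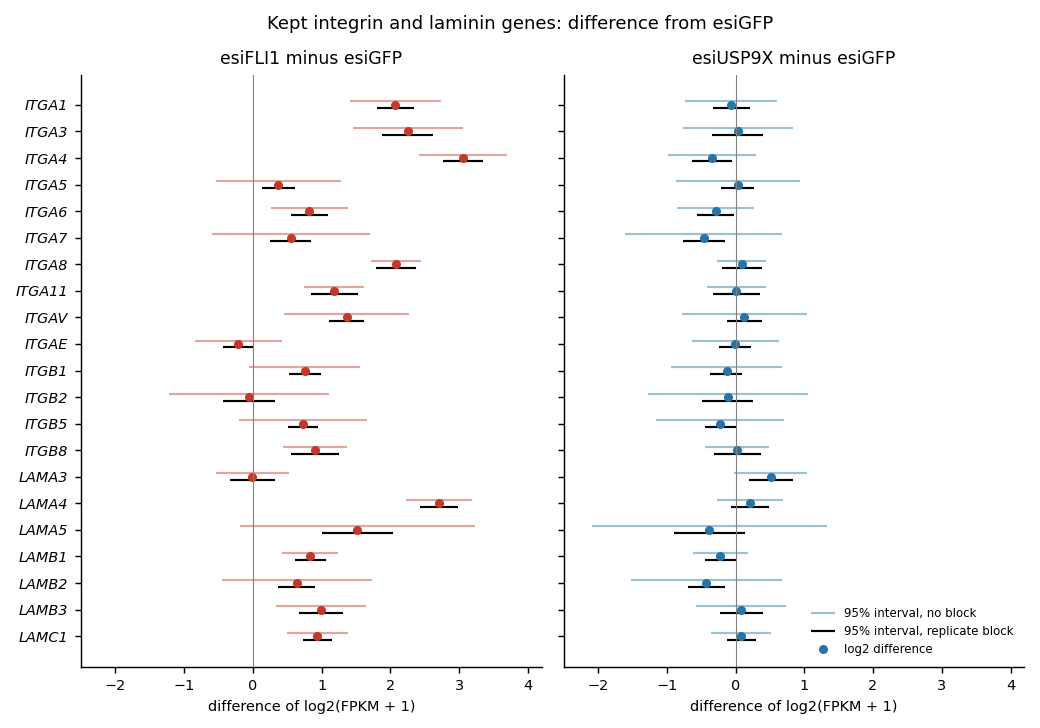
Difference of log2(FPKM + 1) from esiGFP for the 21 kept genes, esiFLI1 on the left and esiUSP9X on the right, as points with 95% intervals from limma without a block (coloured, upper) and with the replicate block (black, lower). The points of ITGA4 (3.05), LAMA4 (2.70) and ITGA3 (2.25) lie far to the right in esiFLI1, and the esiUSP9X points lie between -0.46 and 0.51. LAMA4 and ITGA3 were kept only through esiFLI1.

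Set directly against esiFLI1, esiUSP9X cells had lower levels of most of these genes, which tests the difference of the effects of the knockdowns. Of the 15 genes kept without the help of esiFLI1, limma without the block called 3 lower and 0 higher, where 1.46% of such genes were lower and 0.437% higher. With the block 12 were lower and 1 higher, where 18.6% and 21% of genes were. Over all 21 genes 7 were lower and 0 higher without the block, beside 2.66% and 0.419% of 12169 genes, and 18 were lower and 1 higher with it, beside 20.9% and 20.2%. ITGA4 was 3.15 and 3.83 FPKM in esiUSP9X against 37.9 and 55.9 in esiFLI1 (log2 difference -3.39, SE 0.25, limma adjusted p = 0.0086). ITGA1 was 2.28 and 2.82 FPKM in esiUSP9X against 12.02 and 17.7 in esiFLI1 (-2.14, SE 0.26, limma adjusted p = 0.024). LAMB1, with 64.6 and 60.9 FPKM in esiUSP9X against 134 and 128 in esiFLI1, was the third (-1.05, SE 0.16, limma adjusted p = 0.040). LAMA3 was the gene that was higher, with 3.66 and 3.48 FPKM in esiUSP9X against 2.24 and 2.16 in esiFLI1 (0.51, limma adjusted p = 0.020 with the block, 0.33 without it). The calls without the block rest on few libraries here too: none of the 7 over all 21 genes remained without esiUSP9X 1 (adjusted p = 0.12 to 0.38) or esiUSP9X 2 (0.089 to 0.41), and those of ITGA1 and LAMB1 ended whichever single library was left out. For LAMA3 the blocked call ended whenever any of those 4 libraries was left out (0.066 to 0.16). The call of ITGA5 with the block (-0.34, limma adjusted p = 0.033) ended in the same way (0.058 to 0.27).

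The mix of alpha chains differed as well. The integrin alpha genes summed to 228 and 224 FPKM in esiFLI1, 112 and 95.5 in esiUSP9X and 117 and 94.0 in esiGFP. ITGA5 made up 43.9% and 27.0% of this sum in esiFLI1, 64.0% and 55.1% in esiUSP9X and 63.5% and 51.4% in esiGFP. ITGA4 made up 16.6% and 24.9% in esiFLI1, 2.81% and 4.01% in esiUSP9X and 3.74% and 5.28% in esiGFP. The share of ITGA4 was thus higher and that of ITGA5 lower in each esiFLI1 library than in any other. Among beta genes the share of ITGB1 was 74.0% and 87.4% in esiFLI1, 77.3% and 86.5% in esiUSP9X and 74.0% and 87.1% in esiGFP, so it differed between replicate numbers while the groups overlapped. These shares were not tested.

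For laminin, the alpha genes summed to 26.6 and 17.3 FPKM in esiFLI1, 7.50 and 6.07 in esiUSP9X and 10.2 and 3.79 in esiGFP. These sums were below those of the beta genes, which were 156 and 141 FPKM in esiFLI1, 73.5 and 66.4 in esiUSP9X and 84.0 and 82.5 in esiGFP. LAMA4 held 22.3% and 41.7% of the alpha sum in esiFLI1, 2.92% and 7.75% in esiUSP9X and 0.632% and 6.76% in esiGFP. LAMA3 held 8.45% and 12.4% in esiFLI1, 48.8% and 57.3% in esiUSP9X and 27.2% and 45.9% in esiGFP. LAMC1 held at least 99.4% of the gamma sum in every library, counting LAMC1 and LAMC3.

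**Figure D4:**
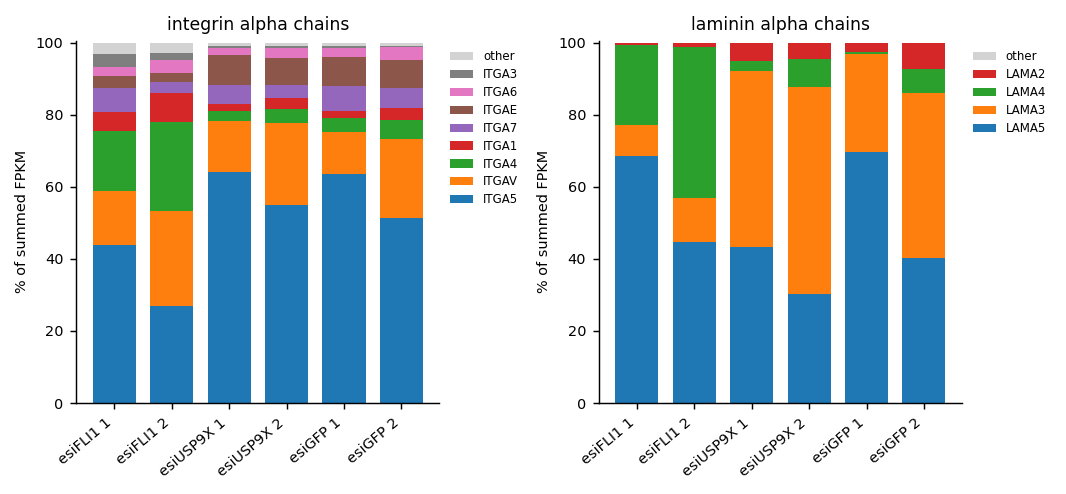
Share of the summed FPKM of the integrin alpha genes (left) and laminin alpha genes (right) held by each chain, as stacked bars in per cent for each of the 6 libraries. The ITGA4 segment is 16.6% and 24.9% in esiFLI1 and at most 5.28% elsewhere, and the LAMA4 segment is 22.3% and 41.7% in esiFLI1 and at most 7.75% elsewhere.

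Replicates 1 and 2 differed in the same direction for most members, whichever esiRNA was used. Of the 21 kept genes, 12 were higher in library 1 of all 3 groups, 8 were higher in library 2 of all 3 groups, and LAMB1 was mixed. Such a fixed order was found for 95.2% of the kept members and for 83.2% of all kept genes. The 12 genes higher in library 1, such as LAMA5, ITGA7 and LAMB2, had a median transcript GC content of 58.8% (48.7% to 66.4%), and the 8 higher in library 2, such as ITGAV and ITGB1, one of 41.5% (37.8% to 46.6%). Across the 21 genes Spearman's rho between GC content and the mean replicate difference was 0.93, and 0.87 across 11470 kept genes with a transcript, which share the same libraries and are no independent replicates. The block takes this shared order out of the error. The part of GC content in the results was not tested.

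**Figure D5:**
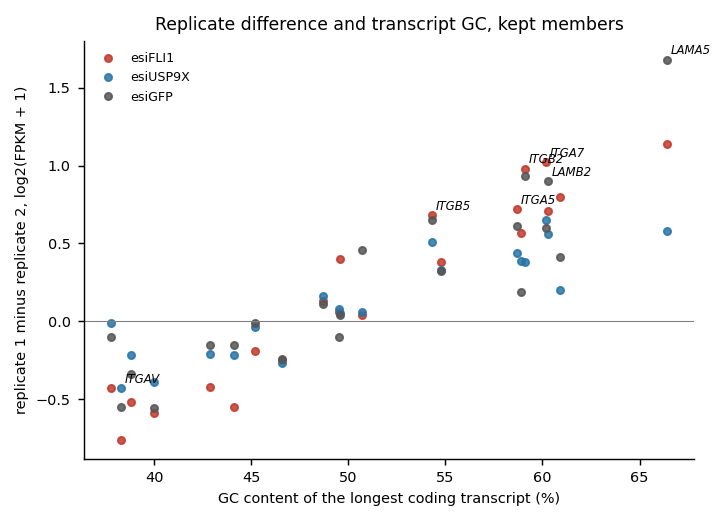
Replicate 1 minus replicate 2 in log2(FPKM + 1) (vertical axis) against GC content of the longest coding transcript in per cent (horizontal axis) for the 21 kept genes, with a point for each of esiFLI1, esiUSP9X and esiGFP. Points lie below 0 at low GC and above 0 at high GC in all 3 groups, up to LAMA5 at 66.4%.

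Genes that work with integrins and laminins were counted from lists of known partners, leaving out 4 that passed the filter only through esiFLI1 (LIMS2, NID1, NPNT and SDC1). Beside them, 1.37% of all genes kept without esiFLI1 rose and 0.24% fell without the block, and 18.2% rose and 22.5% fell with it. Other integrin ligands had 17 such genes, of which 8 rose and 0 fell without the block and 15 and 0 with it (median log2 difference 1.99, against -0.05 for all such genes). FBN1, a microfibril protein with an RGD site, was 69.2 and 75.8 FPKM in esiFLI1 and 7.74 and 6.95 in esiGFP (3.14, limma adjusted p = 0.0058). NPNT, the nephronectin gene, is outside these counts and was 4.28 and 4.12 FPKM in esiFLI1 and 0.0705 and 0.126 in esiGFP (2.24, limma adjusted p = 0.0058). Because NPNT was kept only through esiFLI1, that it is higher there is no finding of the test. SPP1, osteopontin, was 13.1 and 19.6 FPKM in esiFLI1 and 1.08 and 1.2 in esiGFP (2.99, limma adjusted p = 0.0095), and TNC, tenascin C, was 329.9 and 303 FPKM in esiFLI1 and 76.4 and 81.5 in esiGFP (1.99, limma adjusted p = 0.0096). FN1, fibronectin, the main ligand of the ITGA5 receptor, was listed at 0 in both libraries of esiFLI1, at 890.2 and 899.8 FPKM in esiUSP9X, and at 0 in both of esiGFP, so it was left out of the count and no fold is given. These values of 0 may be failed FPKM estimates, which was not tested, so FN1 is read neither as absent nor as changed.

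Of 14 listed partners of laminin in basement membranes, 7 were kept without esiFLI1, of which 2 rose and 0 fell without the block and 6 and 0 with it (median 1.06). NID1, the linker nidogen, is outside these counts and was 6.18 and 4.965 FPKM in esiFLI1 and 0.649 and 0.310 in esiGFP (2.15, limma adjusted p = 0.012). Because NID1 was kept only through esiFLI1, that it is higher there is no finding of the test. Its relative NID2 was 42.9 and 32.8 FPKM in esiFLI1 and 11.6 and 6.74 in esiGFP (1.96, adjusted p = 0.047 in limma). COL4A1, a collagen IV chain, was 77.9 and 59.9 FPKM in esiFLI1 and 21.65 and 15.3 in esiGFP (1.85, limma adjusted p = 0.035). Among laminin receptors other than integrins, 7 of 11 were kept without esiFLI1, of which 1 rose without the block and 6 with it, and 0 fell (median 0.57). The gene called without the block was SDC2, a syndecan, with 111 and 115 FPKM in esiFLI1 and 37.2 and 36.65 in esiGFP (1.59, limma adjusted p = 0.015).

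On the inner side of integrins, of 24 activators and adaptors 19 were kept without esiFLI1, of which 2 rose and 0 fell without the block and 9 rose and 1 fell with it (median 0.41). PARVA, which ties the integrin-linked kinase to actin, was 11.15 and 12.7 FPKM in esiFLI1 and 3.98 and 4.61 in esiGFP (1.29, limma adjusted p = 0.038). VCL, vinculin, was 217 and 190.2 FPKM in esiFLI1 and 96.6 and 79.05 in esiGFP (1.21, limma adjusted p = 0.047). Of 5 genes that hold integrins inactive, limma called 0 without the block, with 0 at an unadjusted p under 0.05, and 1 rose and 2 fell with it (median -0.09). Of 9 kept surface partners, 0 rose and 1 fell without the block and 5 rose and 2 fell with it (median 0.29). The blocked falls of these 2 lists stand beside 22.5% of all genes kept without esiFLI1, and the blocked rises beside 18.2%. The surface partner that fell without the block was CAV1, caveolin 1, with 582 and 637 FPKM in esiFLI1 and 1191 and 1344 in esiGFP (-1.05, limma adjusted p = 0.044). In esiUSP9X, limma called 0 of 68 kept genes of these 6 lists, here with LIMS2, NID1, NPNT and SDC1 and without FN1. Of the 68, 1 had an unadjusted p under 0.05 without the block and 14 with it, beside 0.937% and 10.9% of all genes. Without and with the block, 0.0247% and 0.074% of all genes were called higher and 0% and 0.164% lower.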

How the data were processed

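The authors deposited 1 table of FPKM per gene symbol and library, unit as in the file headers. The labels give a stranded, rRNA-depleted kit, 2 µg of RNA and 75-nt single-end reads, and the submitters' processing notes name TopHat, Cufflinks, Cuffdiff, hg19 and GRCh37, with their roles, versions and annotation not given in the sources used here. From these values log2(FPKM + 1) was computed, and genes reaching 1 FPKM in 2 or more of the 6 libraries were kept, 12169 of 25268 (1 stray line was dropped). limma 3.58.1 in R 4.3.3 (lmFit, eBayes with trend) was fitted to all 6 libraries with 3 group means, and p-values were adjusted by Benjamini-Hochberg over all kept genes, with 0.05 as the threshold. The script was tested on simulated data. Alternatives were a replicate block, other pseudocounts, filters and scalings, and leaving out each library. The labels do not say what a replicate number shares, but deviations from the group means correlated in each pair of groups (0.644, 0.647 and 0.589 over genes), so the numbers were taken as pairs and the blocked value stands beside each result whose call it changes. GC content came from the longest coding transcript of GENCODE 29, promoters from RefSeq. Members and lists were chosen with earlier results of these data known. Per-library values are given for members called in any comparison or averaging at least 10 FPKM in a group, and for up to 4 genes of each list with the smallest p. Depth is unknown, so no counting interval can be given.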

Additional observations from a re-analysis of the deposited data

How the results depend on the processing

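The number of members called in esiFLI1 against esiGFP, 6 without a block, was 18 with the replicate block, alone, with quantile normalization or with a pseudocount of 0.1 (this last one chosen after seeing the data), 3 with a filter of 5 FPKM or with only the 2 groups compared, and 0 to 18 when 1 library was left out, with or without the block. With no filter on low values, 9 of 35 members were called, all higher, where 558 of 19453 genes were called in either direction. The median log2 difference of 0.90 became 0.97 with a pseudocount of 0.1 or quantile normalization, with or without the block, 0.98 when rescaled without MIR6723, 0.56 with no filter, 0.82 with 5 FPKM and 0.86 to 1.06 with 1 library left out. In esiUSP9X against esiGFP 0 to 1 members were called with 1 library left out, and the median of -0.01 became -0.18 with 5 FPKM and -0.16 to 0.08 with 1 library left out. In esiUSP9X against esiFLI1 the 7 calls became 19 with the replicate block, alone, with quantile normalization or with a pseudocount of 0.1, 3 with 5 FPKM or only 2 groups, and 0 to 19 with 1 library left out. The median of -1.05 became -1.27 with a pseudocount of 0.1, blocked or not, -0.86 with no filter, -1.02 with quantile normalization, blocked or not, -1.15 when rescaled and -1.19 to -1.01 with 1 library left out.

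LAMA3 in esiFLI1 against esiGFP, at -0.01, was 0 with a pseudocount of 0.1, blocked or not, 0.10 when rescaled and -0.23 to 0.22 with 1 library left out. With 1 library left out, the differences of esiUSP9X from esiGFP ranged from -0.24 to 0.11 for ITGA1, -0.18 to 0.23 for ITGA3, -0.27 to 0.34 for ITGA5, -0.07 to 0.10 for ITGA11, -0.14 to 0.41 for ITGAV, -0.41 to 0.15 for ITGB1, -0.55 to 0.11 for ITGB5, -0.11 to 0.15 for ITGB8, -1.22 to 0.46 for LAMA5, -0.88 to 0.02 for LAMB2 and -0.11 to 0.28 for LAMB3. ITGA5 in esiUSP9X against esiFLI1 ranged from -0.70 to 0.02. The cause of these changes was not tested, beyond the fewer genes or libraries of the filters and left-out fits. Rescaling moved the median of all genes in esiFLI1 against esiGFP to 0.10, against -0.03. With 2 libraries a group and unknown depth, differences of genes near 1 FPKM are poorly bounded. Genes of the partner lists were refitted only with the replicate block.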
